A study of Rattus norvegicus with 18 samples.

Results

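The immediate early genes Fos, Fosl1, Jun, Junb, Egr1, Egr2, Egr3, Arc and Nr4a1, and Ptgs2, the gene of cyclooxygenase-2, were followed in rat hippocampus after pilocarpine-induced status epilepticus (SE). They were found by the gene symbol that the array's annotation gives each probe, or by the RefSeq accession of the probe where no symbol is given. All 10 genes were measured, by 14 probes, out of 12331 named genes and 33800 probes tested on the array. Fos, Fosl1, Junb and Egr1 had 2 probes each, and the probe with the highest mean intensity stood for its gene.

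Each array, a CodeLink Rat Whole Genome chip, carried the total RNA of 1 adult male Wistar rat's hippocampi. Pilocarpine rats were given scopolamine methylnitrate and then the muscarinic agonist pilocarpine, and SE was stopped with diazepam after 4 h. Their hippocampi were taken after 3 days (D3, n = 5), after 7 days (D7, n = 5) or up to 12 h from the onset of spontaneous seizures (Chronic, n = 5). Control rats, which by the methods received saline only, gave 3 arrays, 1 for each of these times, taken here as a single group (Control, n = 3). The pilocarpine groups therefore differ from Control by the whole treatment and not by seizures alone. How many hours had passed since the last seizure was not given for the single rats, so every array is shown by its replicate number.

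Immediate early genes are transcribed within minutes of strong synaptic activity, because the transcription factors that switch them on, such as CREB and the serum response factor, are already present in the cell. Their messengers are short-lived, so that their level at any time follows recent activity. Fos, Fosl1, Jun and Junb encode subunits of the transcription factor AP-1, Egr1, Egr2 and Egr3 encode zinc finger factors, Nr4a1 encodes an orphan nuclear receptor, and Arc encodes a dendritic protein that takes part in removing AMPA receptors from synapses. Ptgs2 is induced in the same way in excitatory neurons of the hippocampus, and its enzyme makes the common precursor of prostaglandins and thromboxane from arachidonic acid.

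The stretch before the transcription start of these genes is shown because they are defined by how they are switched on. The RefSeq table for rat build GRCr8 held 6 of the 10 genes, namely Fosl1, Junb, Egr1, Egr2, Nr4a1 and Ptgs2, and not Fos, Jun, Egr3 and Arc. In the 250 bases before the start, searched on both strands, the half-site of the cyclic AMP response element (TGACG) was found in 5 of the 6 and in 19% of all 27457 promoters of the table. The full element (TGACGTCA), which contains the half-site, was found in none of the 6 and in 1.7% of all promoters. The CArG box, the sequence to which serum response factor binds, was found in Egr1 and Egr2 and in 1.5% of all promoters. Egr1 held 2 CArG boxes, CCATATTAGG from base 105 to base 96 before the start and CCATATATGG from base 83 to base 74. The single CArG box of Egr2 had the letters CCATATATGG at the same distance of 83 to 74 bases. An AP-1 site (TGANTCA) was found in none of the 6, against 6.36% of all promoters, and an E-box (CACGTG) in Ptgs2 alone of the 6, from base 55 to base 50, against 5.79%. Such matches describe letters and do not show that a factor binds. The promoters of Egr1 (chr18:26736828-26737077 on the plus strand) and Egr2 (chr20:21054442-21054691 on the minus strand) are printed for their CArG boxes, that of Junb (chr19:40080876-40081125 on the plus strand) because Junb followed Fos most closely from array to array, and that of Ptgs2 (chr13:64713813-64714062 on the plus strand) because Ptgs2 was one of the genes that changed. All are from RefSeq, run 5′ to 3′ along the gene and end at the base before the start, and capitals mark CArG boxes, half-sites on either strand and the E-box.
Egr1: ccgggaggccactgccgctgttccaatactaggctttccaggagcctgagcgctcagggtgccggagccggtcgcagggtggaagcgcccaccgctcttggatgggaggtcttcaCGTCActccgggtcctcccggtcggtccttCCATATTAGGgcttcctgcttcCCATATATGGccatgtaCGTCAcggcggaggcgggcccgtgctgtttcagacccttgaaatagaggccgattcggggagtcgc
Egr2: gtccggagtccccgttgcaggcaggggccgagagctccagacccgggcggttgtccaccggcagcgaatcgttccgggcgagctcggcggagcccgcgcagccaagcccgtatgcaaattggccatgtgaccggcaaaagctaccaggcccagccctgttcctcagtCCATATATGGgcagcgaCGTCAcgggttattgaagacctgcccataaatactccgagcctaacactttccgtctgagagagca
Junb: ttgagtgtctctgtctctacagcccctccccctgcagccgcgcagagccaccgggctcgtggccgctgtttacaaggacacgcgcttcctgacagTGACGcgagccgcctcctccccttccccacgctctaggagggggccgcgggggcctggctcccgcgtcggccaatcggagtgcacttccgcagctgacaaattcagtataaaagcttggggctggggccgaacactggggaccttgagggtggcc
Ptgs2: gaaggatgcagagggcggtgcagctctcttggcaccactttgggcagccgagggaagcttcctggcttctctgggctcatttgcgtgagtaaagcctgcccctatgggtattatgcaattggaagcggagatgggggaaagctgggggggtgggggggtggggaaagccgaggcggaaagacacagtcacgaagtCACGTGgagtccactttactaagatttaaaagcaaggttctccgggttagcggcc

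Intensities below are the authors' normalized intensities on a linear scale, on which the median spot of an array lies near 1. A gene was called, and the words rose and fell are used of it, where limma gave an adjusted p under 0.05 over all 33800 probes and the change was at least 2-fold. Log2 fold changes are given with their standard error from this fit, and n is 5 against 3 for comparisons with Control. The share of spots flagged as good was 66% to 76% over the 18 arrays, and arrays of the same group correlated at 0.949 to 0.970. Of 11 marker genes of hippocampal principal neurons 7 were measured, and 5 to 7 of these were flagged good on every array. In RNA from whole tissue, fewer cells of a type and less RNA per cell cannot be told apart.

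In Chronic, Fos, on its first probe, and Ptgs2 rose, and none of the other 8 genes was called. Of all probes tested, 2.28% were called higher in Chronic and 0.612% lower. The median log2 fold change over the 10 genes was 0.28, against -0.12 over all 12331 genes, and 7 of the 10 were positive. For 1 of the 10 genes, Ptgs2, the Chronic and Control arrays did not overlap, against 23.1% of all probes.

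**Figure D1:**
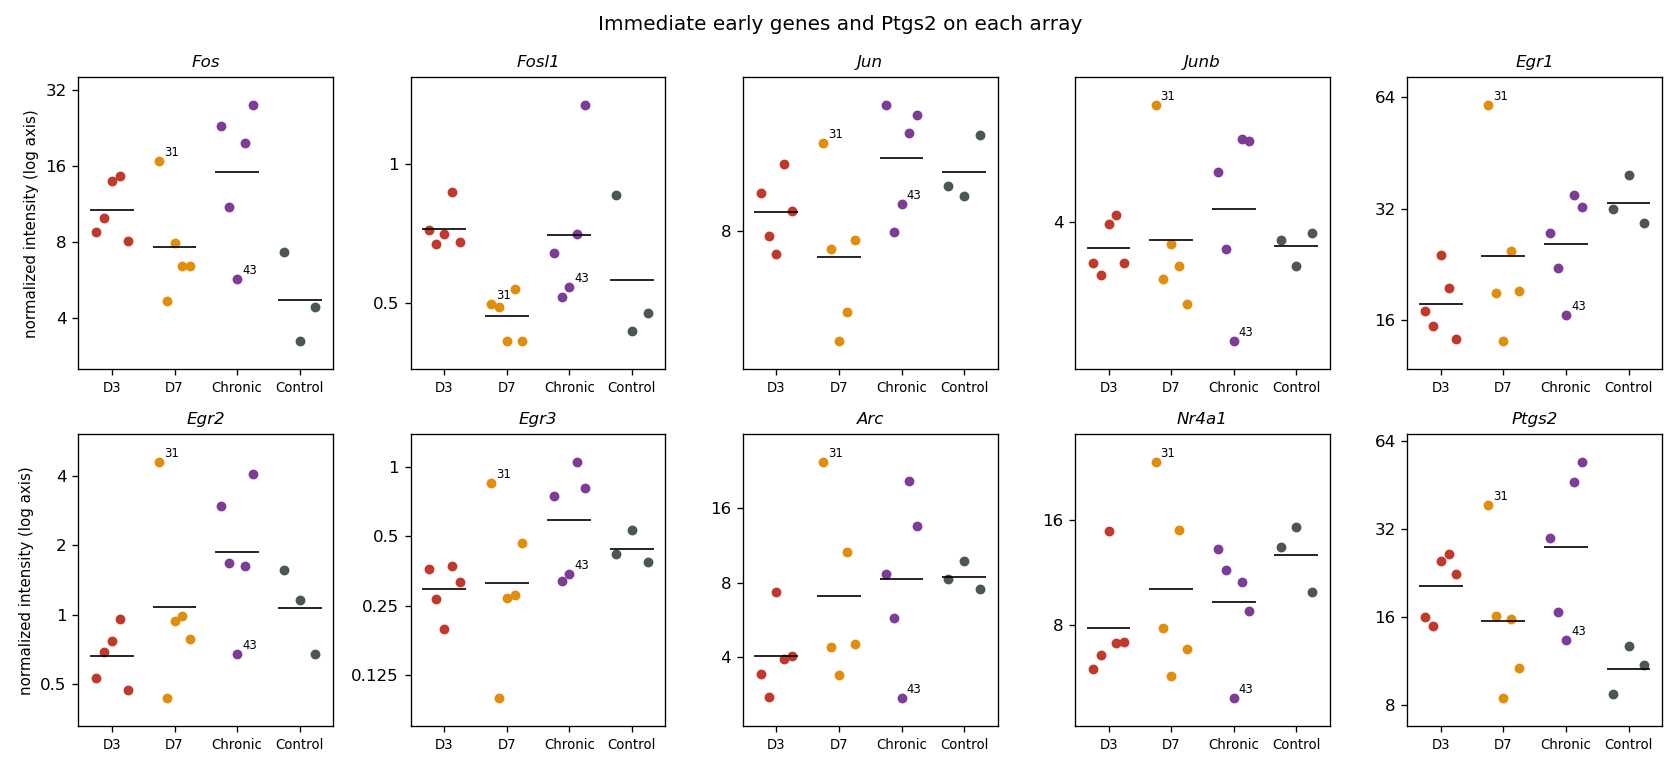
Normalized intensity (vertical axes, log scale) of the 10 genes on each array, by group (horizontal axes), with each point 1 rat and the line the mean of the log2 values. D7 replicate 31 and Chronic replicate 43 are numbered. Ptgs2 lay above all Control arrays on every Chronic array, and Fos on 4 of the 5. Chronic and Control arrays did not overlap in 23.1% of all probes.

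Fos, whose protein is the inducible partner in AP-1, read 23.0, 11.01, 5.70, 19.7 and 27.8 on Chronic replicates 41 to 45, against 7.34, 3.25 and 4.44 on Control replicates 26, 36 and 47. Chronic 43 was inside the range of Control, and the other 4 Chronic arrays lay above it. The log2 fold change was 1.68 ± 0.43 (3.2-fold, adjusted p = 0.015). At D3, replicates 11 to 15 read 8.75, 9.94, 14.01, 14.6 and 8.12. All 5 of these lay above the highest Control array, yet the change of 1.19 ± 0.43 was not called (adjusted p = 0.0546). At D7, replicates 31 to 35 read 16.8, 4.69, 7.97, 6.46 and 6.46, and D7 31 was the highest by far, with 3 of the 5 arrays inside the range of Control. The change at D7 was 0.69 ± 0.43 (adjusted p = 0.285). By mean log2 value the groups stood in the order Chronic, D3, D7 and Control, and no difference between Chronic and D3 (0.49 ± 0.37, adjusted p = 0.551), D7 and D3 (-0.49 ± 0.37, adjusted p = 0.627) or Chronic and D7 (0.98 ± 0.37, adjusted p = 0.378) was called.

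The rise of Fos was not the same in its 2 probes. The probe just given was designed on a tag from the 3′ end of a clone and the second probe on a tag from the 5′ end of a clone. The second probe read 17.3, 8.99, 7.26, 14.2 and 16.5 on Chronic replicates 41 to 45, against 10.3, 6.70 and 9.39 on the Control arrays, which gave 0.49 ± 0.28 (adjusted p = 0.264). On this probe 3 of the 5 Chronic arrays lay above Control, and Chronic 42 and 43 lay inside its range. At D3 it gave -0.04 ± 0.28 and at D7 -0.10 ± 0.28, neither of them called. The first probe stood for Fos by its mean over all 18 arrays, the Chronic arrays included. In Control the second probe was the brighter, with a mean log2 value of 3.12 against 2.24. In Chronic the first probe was the brighter, with 3.92 against 3.60. With the second probe in its place, Fos would not have been called in Chronic. A further probe carries no gene symbol and lies outside the rule, but the array files describe it as the messenger of c-fos. It read 2.22, 1.05, 0.726, 1.60 and 2.15 on the Chronic arrays, against 0.802, 0.636 and 0.635 on the Control arrays. Again Chronic 43 was the only Chronic array inside the range of Control, and the change was 1.05 ± 0.31 (adjusted p = 0.0292). It was not called when any 1 of the Control arrays, Chronic 41 or Chronic 45 was left out (adjusted p = 0.0615 to 0.105), without the intensity trend (adjusted p = 0.0514), or with 0.25 added in place of the floor, where the change was 0.85. Against Control 47 alone the change was 1.16. From array to array the 3 probes went together, with a correlation of log2 values of 0.83 between the 2 Fos probes (18 arrays), 0.90 between the first and the c-fos probe and 0.84 between the second and the c-fos probe (17 arrays each).

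**Figure D2:**
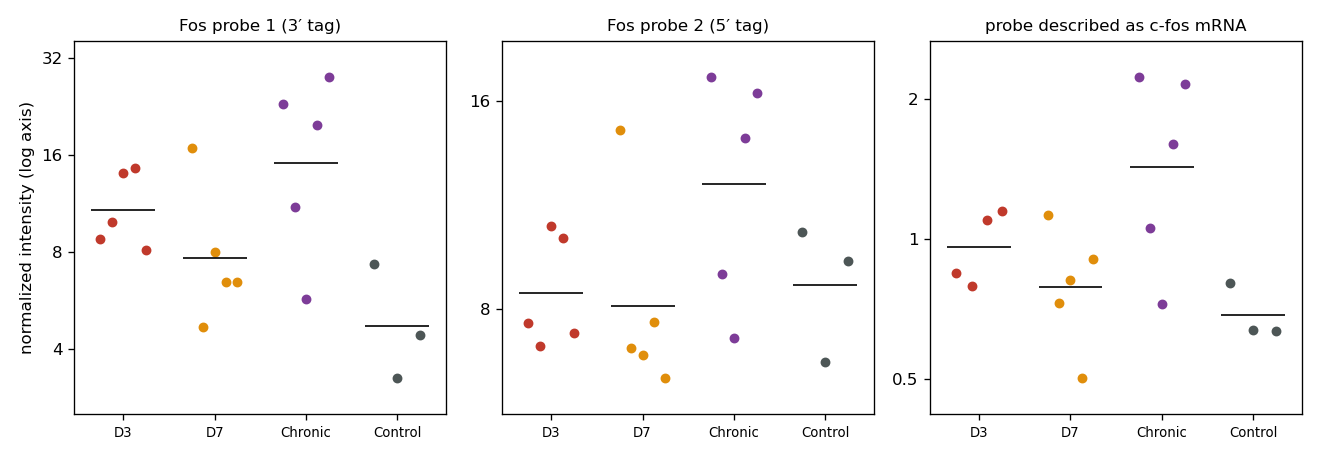
Normalized intensity (vertical axes, log scale) of the 2 Fos probes and of the probe described as c-fos, by group (horizontal axes), with each point 1 array and the line the mean of the log2 values. Chronic was called higher than Control on the first Fos probe and the c-fos probe (log2 fold changes 1.68 and 1.05) and not on the second Fos probe (0.49).

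Ptgs2 read 29.7, 16.7, 13.3, 46.3 and 53.9 on Chronic replicates 41 to 45, against 8.74, 12.7 and 10.9 on the Control arrays. Every Chronic array was above the highest Control array, with Chronic 43 the closest to it. In 23.1% of all probes the Chronic and Control arrays likewise did not overlap, in either direction. The log2 fold change was 1.38 ± 0.43 (2.6-fold, adjusted p = 0.0364). At D3 the arrays 11 to 15 read 16.1, 14.9, 24.8, 26.2 and 22.4, which is also above every Control array, but the change of 0.93 ± 0.43 was not called (adjusted p = 0.13). At D7 the readings were 38.5, 16.2, 8.47, 15.7 and 10.7, where D7 33 and D7 35 did not exceed the highest Control array. The change at D7 was 0.54 ± 0.43 (adjusted p = 0.42). The order of the groups was that of Fos, with no difference called between D3, D7 and Chronic.

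The calls of Fos and Ptgs2 in Chronic depended on single arrays. Fos was not called without Control 36 (1.41, adjusted p = 0.0905), and Ptgs2 was not called when any 1 of the 3 Control arrays, Chronic 41, Chronic 44 or Chronic 45 was left out (adjusted p from 0.0685 to 0.141). Against the time-matched Control 47 alone the changes were of like size, at 1.77 for Fos and 1.34 for Ptgs2. A single array has no spread of its own and was assumed to vary like the other groups, so that the adjusted p of 0.25 and 0.41 in this comparison says little of how stable the calls are. Over all alternatives run, this one included, the adjusted p was between 0.00222 and 0.25 for Fos and between 0.0126 and 0.41 for Ptgs2. Markers of choroid plexus, a tissue that lies beside the hippocampus, were 0.92 to 2.66 above the Control mean on Chronic 41, 42, 44 and 45 (mean log2 difference over 7 measured of 7 markers) and at -1.51 on Chronic 43, the array lowest in Fos and Ptgs2. Their summed intensity ran from 7.16 to 199.8 in Chronic and from 12.9 to 242 in Control, and 3 to 7 of the 7 were flagged good on the Chronic arrays. On D7 31, high in Fos and Ptgs2, these markers were low (-1.47, with 3 of 7 flagged good). Their part in the Chronic values was not tested.

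At D3 none of the 10 genes was called, and some lay above Control and others below it. Of all probes 3.42% were called higher at D3 and 1.17% lower. For 5 of the 10 genes the D3 and Control arrays did not overlap, against 33.3% of all probes. Fos, on its first probe, and Ptgs2 lay above Control on every array, and Egr1, Egr3 and Arc below it on every array. On the second Fos probe 1 of the 5 D3 arrays lay above Control, and Egr3 was flagged good on 2 of the 5 D3 arrays only. The median log2 fold change over the 10 genes was -0.38, against -0.10 over all genes.

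Arc read 3.42, 2.77, 7.33, 3.93 and 4.04 on D3 replicates 11 to 15, against 8.29, 9.76 and 7.52 on the Control arrays. D3 13 came within a small margin of the lowest Control array and the other 4 D3 arrays were far below. The log2 fold change was -1.06 ± 0.57 (adjusted p = 0.2) and was not called. The readings spread more widely at D7, where they were 24.5, 4.38, 3.40, 10.6 and 4.51, and in Chronic, where they were 8.67, 5.74, 2.73, 20.7 and 13.5. In both groups 2 arrays stood above the highest Control array, while D7 32, 33 and 35 and Chronic 42 and 43 stood below the lowest. The means differed little from Control, by -0.26 ± 0.57 at D7 and -0.04 ± 0.57 in Chronic, with 95% intervals of -1.46 to 0.93 and -1.23 to 1.15.

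Egr1 read 17.0, 15.4, 24.01, 19.6 and 14.3 on D3 replicates 11 to 15, against 31.96, 39.4 and 29.2 on the Control arrays. All D3 arrays were below Control, and the change was -0.91 ± 0.33 (adjusted p = 0.0545). Its second probe gave -0.79 ± 0.33 over 4 D3 arrays (adjusted p = 0.1), and the 2 probes correlated at 0.90 over 16 arrays. At D7 the Egr1 readings were 60.8, 19.0, 14.1, 24.7 and 19.2 and in Chronic 27.5, 22.1, 16.6, 34.9 and 32.3. D7 31 was thus the highest of all 18 arrays, whereas the other 4 D7 arrays were below the lowest Control array. Neither D7 (-0.48 ± 0.33) nor Chronic (-0.37 ± 0.33) was called.

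Egr2 and Egr3, the related zinc finger factors, were dimmer. Egr2 read 0.530, 0.688, 0.768, 0.957 and 0.470 on D3 replicates 11 to 15, 4.57, 0.435, 0.942, 0.992 and 0.787 on D7 replicates 31 to 35, and 2.96, 1.68, 0.679, 1.62 and 4.08 on Chronic replicates 41 to 45, against 1.57, 1.16 and 0.676 on the Control arrays. The D3 arrays were all below 1 and 4 of the 5 Chronic arrays above the highest D3 array. Between Chronic and D3 Egr2 differed by 1.5 ± 0.49 (n = 5 against 5, adjusted p = 0.119), the widest difference of the 10 genes in that comparison, and it was not called. Egr3 was flagged good on 2 of 5 arrays at D3, 2 of 5 at D7, 4 of 5 in Chronic and 3 of 3 in Control, so that much of its low range lay near background. Its highest readings were 1.04, 0.809 and 0.749 on Chronic 44, 45 and 41 and 0.847 on D7 31, against 0.416, 0.531 and 0.387 in Control. The changes of Egr3 against Control were -0.58 ± 0.50 at D3, -0.50 ± 0.50 at D7 and 0.41 ± 0.50 in Chronic.

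Nr4a1 read 5.95, 6.54, 14.9, 7.10 and 7.16 on D3 replicates 11 to 15, 23.4, 7.85, 5.71, 14.97 and 6.81 on D7 replicates 31 to 35, and 13.2, 11.5, 4.93, 10.7 and 8.75 on Chronic replicates 41 to 45, against 13.4, 15.3 and 9.93 on the Control arrays. Of the pilocarpine arrays D7 31 alone was above Control, and D3 13 and D7 34 were inside its range while the rest of D3 and D7 was below it. The changes of -0.70 ± 0.39, -0.32 ± 0.39 and -0.45 ± 0.39 for D3, D7 and Chronic were not called. Unlike Fos, Nr4a1 was on no Chronic array above the highest Control array.

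Of the other AP-1 genes none was called. Jun, the main partner of Fos in AP-1, read between 7.41 and 9.90 at D3, between 5.62 and 10.6 at D7, between 7.95 and 11.9 in Chronic and between 8.94 and 10.9 in Control. Its widest change was -0.39 ± 0.17 at D7 (adjusted p = 0.122), and its 95% intervals lay within 1 log2 unit of 0 at all 3 times. Junb, which can restrain Jun, read between 3.17 and 4.12 at D3, 2.78 and 6.71 at D7, 2.36 and 5.77 in Chronic and 3.30 and 3.82 in Control. The intervals of Junb also lay within 1 log2 unit of 0, with changes of -0.01 ± 0.26, 0.04 ± 0.26 and 0.24 ± 0.26. Its dimmer second probe gave 0.15 ± 0.24 at D3, 0.05 ± 0.24 at D7 and 0.42 ± 0.24 in Chronic, none of them called. In Chronic the interval of that probe was -0.09 to 0.93, with 3 of the 5 arrays above Control. Fosl1, which encodes Fra-1, read 0.719, 0.670, 0.705, 0.870 and 0.676 at D3 and 0.497, 0.490, 0.414, 0.537 and 0.414 at D7, 2 of the D7 spots being flagged low, and between 0.516 and 1.34 in Chronic and 0.436 and 0.856 in Control. The changes of Fosl1 for D3, D7 and Chronic against Control were 0.37 ± 0.26, -0.27 ± 0.26 and 0.32 ± 0.26, none of them called. Its dimmer second probe read 0.827, 0.747, 0.646, 1.05 and 0.828 on D3 replicates 11 to 15, all flagged good, against 0.391, 0.368 and 0.166 on the Control arrays, of which 2 were flagged low. All 5 D3 arrays lay above Control on this probe, and the change of 1.49 ± 0.58, wider than that of Fos at D3, was not called (adjusted p = 0.0712). It was called without D7 35 (adjusted p = 0.0412), without Chronic 45 (adjusted p = 0.0269) and by the methods' t-test after Benjamini-Hochberg adjustment (adjusted p = 0.0228). On the first probe Fosl1 was the single gene of the 10 whose D7 and D3 arrays did not overlap, against 3.83% of all probes. The difference of D7 from D3 was -0.63 ± 0.23 (n = 5 against 5, adjusted p = 0.225), and the second probe, flagged good on 1 of 5 arrays at D7, gave -1.79 ± 0.50 (adjusted p = 0.107). Of all probes 0.322% were called between D7 and D3.

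**Figure D3:**
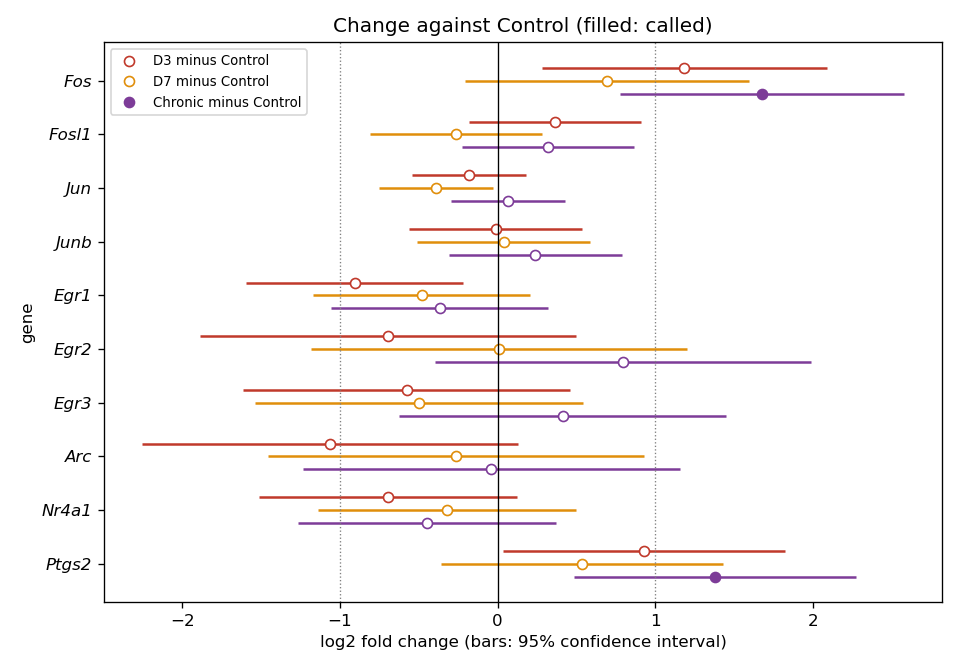
Log2 fold change against Control (horizontal axis) of each gene (vertical axis) at D3, D7 and in Chronic, with 95% confidence intervals from limma (n = 5 against 3). Filled points are called, which holds for Fos and Ptgs2 in Chronic, and dotted lines mark 2-fold.

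No gene of the 10 was called at D7, against 3.06% of all probes called higher and 0.432% lower, and none separated from Control on all arrays, against 24.4% of all probes. Between the pilocarpine groups none was called either. Of all probes 0.743% were called between Chronic and D3 and 0.0503% between Chronic and D7. The 10 genes had a median of 0.47 in Chronic over D3 and 0.52 in Chronic over D7, with 9 of 10 positive in each, against medians of -0.03 and -0.01 over all genes. Both comparisons use the same Chronic arrays.

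The group means hid a common pattern among single rats. D7 31 was the highest D7 array in 9 of the 10 genes, where this array was the highest in 15.8% of all probes. It stood 1.09 log2 units above the Control mean on average over the 10 genes, and 8 of them exceeded the highest Control array, against 25.8% of all probes on that array. The other 4 D7 arrays stood at -0.61, -0.54, -0.05 and -0.36, with 0 to 2 genes above Control and 4 to 7 below it. Of all probes, 27.1% to 32.3% lay above Control on these 4 arrays and 34.7% to 42.7% below it. Chronic 43 was the lowest Chronic array in 7 of the 10 genes, where it was the lowest in 16.3% of all probes. Its mean difference from Control was -0.52, whereas Chronic 41, 42, 44 and 45 stood at 0.68, 0.03, 0.83 and 0.998. On Chronic 45 8 genes exceeded the highest Control array, on Chronic 44 7, on Chronic 41 6, on Chronic 42 3 and on Chronic 43 1. The share of all probes that did so was 24.5% to 28.8% on the Chronic arrays. At D3 the arrays lay between -0.37 and 0.08, with 2 to 4 genes above Control and 4 to 6 below it. These counts were near the shares of all probes on the D3 arrays, 24.3% to 26.3% above Control and 40.1% to 43.2% below it.

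**Figure D4:**
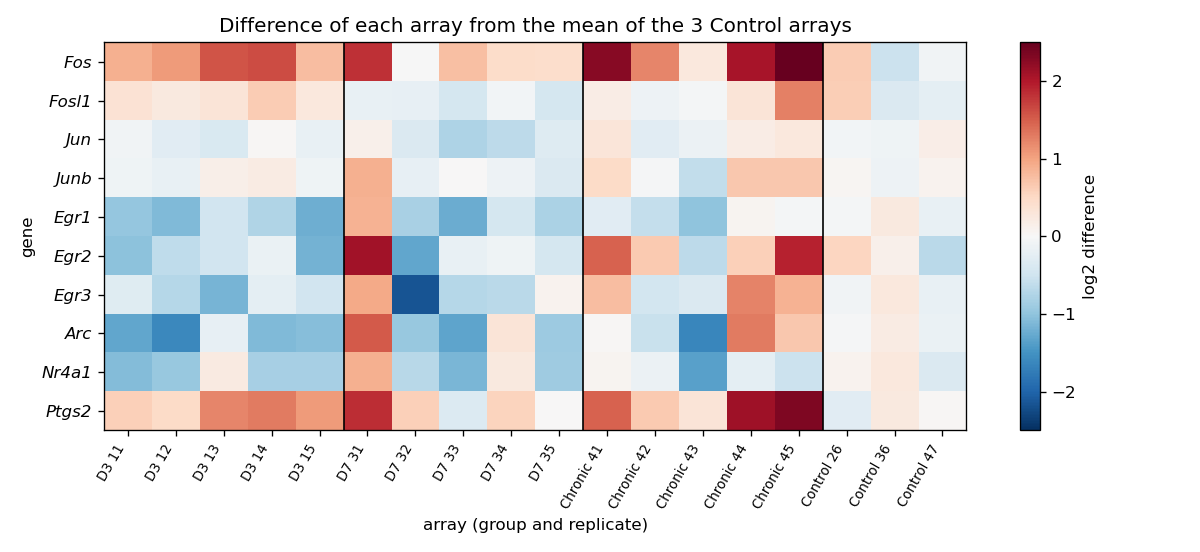
Log2 difference of each array (horizontal axis, by group and replicate) from the mean of the 3 Control arrays for each gene (vertical axis), with red above and blue below the Control mean. D7 31 and Chronic 41, 44 and 45 were high across most genes, with mean differences of 1.09, 0.68, 0.83 and 0.998, and Chronic 43 was low (-0.52).

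The spread between rats of one group was accordingly wide for some of these genes. At D7 the SD of Egr2 was 1.26 log2 units, that of Arc 1.18 and that of Egr3 1.14, larger than for 98.9%, 98.4% and 98% of all probes. In Chronic the SD was 1.13 for Arc, 0.99 for Egr2, 0.93 for Fos and 0.88 for Ptgs2, larger than for 98.1%, 95.7%, 94.2% and 93% of probes. For Jun and Fosl1 the SD at D7 was 0.35 and 0.17, against a median of 0.31 over all probes. In Control Fos and Egr2 varied more than the rest, at 0.59 and 0.61, and Arc and Junb little, at 0.19 and 0.11. Markers of principal neurons stood at -0.64 on D7 31 and between -1.27 and -0.36 on the other D7 arrays, and those of microglia at 1.77 and between 1.01 and 2.85, so that D7 31 was within the range of its group in both. At D3 the principal neuron markers were at -1.34 to -0.71, the lowest range of the 3 groups, beside the low values of Egr1, Egr3 and Arc. Their part in these values was not tested.

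After the mean of each group was subtracted, Arc and Egr1 went together most closely among the 10 genes, with a correlation of 0.92 over the 18 arrays, followed by Fos and Junb (0.91) and Arc and Ptgs2 (0.90). Fos and Ptgs2, both called in Chronic, correlated at 0.69, and Fosl1 and Nr4a1 at 0.15. The points share their array and its scaling constant. D7 31, the highest D7 array in Arc, Egr1, Fos, Junb and Ptgs2, weighs on these values. Without it Fos and Junb correlated at 0.89, and the other pairs named here were not computed without it. Among 9472 named genes flagged good on at least 9 arrays, those most like Fos were Junb (0.91), Trib1 (0.89), Egr2 (0.88), Crem (0.88) and Egr4 (0.86). Trib1 encodes a pseudokinase of the Tribbles family, Crem a factor that binds cyclic AMP response elements and Egr4 a further zinc finger factor. Those most like Ptgs2 were Nptx2 (0.96), which encodes a secreted synaptic pentraxin, Nrn1 (0.93), which encodes neuritin, Lingo1 (0.92), Egr4 (0.91) and Tspan5 (0.91). Without D7 31 these correlations were between 0.82 and 0.94. Of the other 9 genes Arc ranked nearest to Ptgs2, at place 8 of the 9472, and Fosl1 farthest, at place 835. Nptx2 itself read between 3.81 and 38.7 in Chronic, with a median of 14.03, against 2.91 to 3.83 in Control, a change of 1.85 ± 0.65 that was not called (adjusted p = 0.0604).

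**Figure D5:**
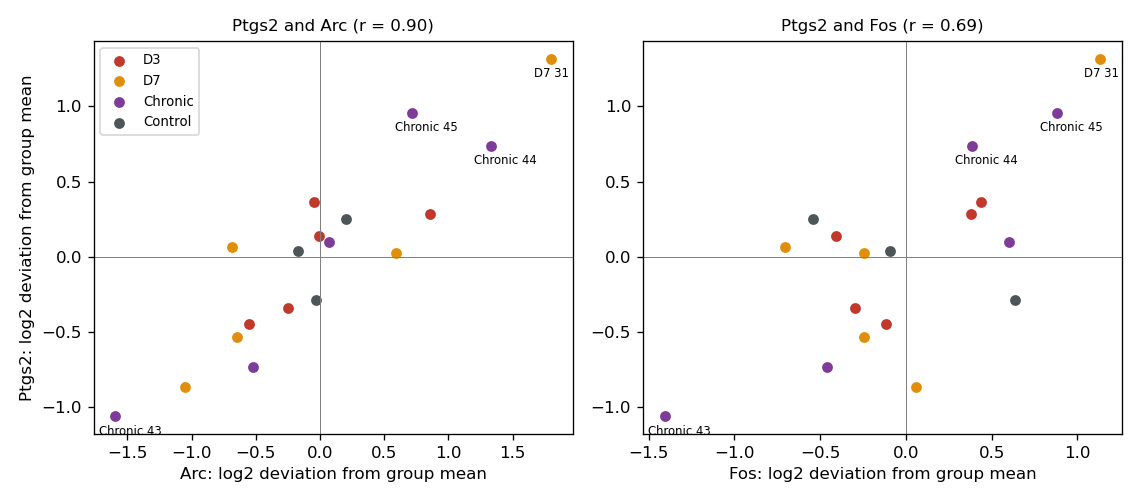
Ptgs2 (vertical axes) against Arc (left) and Fos (right), each as the log2 deviation of an array from its group mean, with 18 arrays coloured by group. D7 31, Chronic 44 and Chronic 45 lie at the upper right and Chronic 43 at the lower left, with correlations of 0.90 and 0.69.

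Genes of further lists, of related factors, effectors and regulators, were called in small numbers. For comparison, 628 of the 12331 named genes rose at D3 and 120 fell. The same counts were 469 and 60 for D7, then 354 and 83 for Chronic. Over these named genes the median log2 fold change was -0.10 at D3, -0.12 at D7 and -0.12 in Chronic. Whether any list held more called genes than this was not tested. Of 10 measured genes of further AP-1 and leucine zipper factors, 2 rose at D3, 1 rose at D7, 2 rose in Chronic, and no member of the list fell. Cebpd, which encodes an acute phase leucine zipper factor, ranged over 20.7 to 25.2 at D3, over 14.4 to 21.4 at D7 and over 11.8 to 23.3 in Chronic, against 4.68 to 5.38 in Control. It was above Control on every pilocarpine array, with changes of 2.18 ± 0.18, 1.77 ± 0.18 and 1.76 ± 0.18 (adjusted p = 5.1e-07, 9.99e-06 and 2.1e-05). Maff, which encodes a small Maf factor, rose at D3 (1.5 ± 0.42, adjusted p = 0.014) and in Chronic (1.44 ± 0.42, adjusted p = 0.026), where it read 0.753 to 4.15 against 0.613 to 0.916 in Control. Maff was not called in Chronic when any 1 of the Control arrays, Chronic 41 or Chronic 45 was left out, nor at D3 without Control 47. Of 16 measured other early transcription regulators none rose and Nr4a3, a nuclear receptor related to Nr4a1, fell at D3 (-1.29 ± 0.22, adjusted p = 0.000517), with 7.22 to 13.7 at D3 against 21.6 to 28.3 in Control. At D7 and in Chronic no gene of that list was called, with Nr4a3 at -0.86 ± 0.22 at D7 (adjusted p = 0.0132), short of 2-fold.

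Of 18 measured effector genes that neurons induce with activity, none was called at D3 or D7 and 2 rose in Chronic. Inhba, the gene of an activin subunit, read 0.992 to 10.6 in Chronic, against 0.677 to 0.919 in Control, and all 5 arrays lay above Control (2.28 ± 0.64, adjusted p = 0.0222). At D3 Inhba read 1.37 to 2.47, also above Control on all 5 arrays, and the change of 1.1 ± 0.64 was not called by limma (adjusted p = 0.236). The methods' t-test after Benjamini-Hochberg adjustment called Inhba at D3 (adjusted p = 0.0179) and not in Chronic (adjusted p = 0.17). Pim1, a kinase gene, rose by 1.51 ± 0.48 (adjusted p = 0.041), or at least 1.32-fold, since its Control spots were all flagged low. Neither was called when any 1 of the Control arrays was left out, and Pim1 was also not called without D3 14, Chronic 41, Chronic 44 or Chronic 45. The call of Pim1 was lost as well with quantile normalization (1.34, adjusted p = 0.112), without the intensity trend (adjusted p = 0.058) and by the methods' t-test, adjusted or not, and with 0.25 added in place of the floor the change was 0.78. Of 11 feedback phosphatases and regulators of messenger decay, Zfp36 (1.53 ± 0.36, adjusted p = 0.0107) and Zfp36l1 (1.0 ± 0.15, adjusted p = 0.000596), whose proteins speed the decay of short-lived messengers, were called higher in Chronic. Zfp36l1 stood at 0.95 ± 0.15 at both D3 and D7 (adjusted p = 0.00025 and 0.000548), short of the 2-fold limit only, and its D3 arrays spanned 19.3 to 22.2, its D7 arrays 15.4 to 28.04 and its Chronic arrays 18.6 to 23.4, against 9.15 to 13.3 in Control. It was called at D3 and D7 with quantile normalization, scaling at percentile 75 or without Control 47, and not called in Chronic without Control 26 or 36 or without Chronic 42 or 45. Zfp36 stood at 1.07 ± 0.38 at D3 and 1.03 ± 0.36 at D7, just beyond the p limit (adjusted p = 0.0511 and 0.0559), and was called at both times with only spots flagged good, scaling at percentile 75 or some single arrays left out. In Chronic it was not called without Control 36. The methods' t-test after Benjamini-Hochberg adjustment called Zfp36 at D3 (adjusted p = 0.0156) and not in Chronic (adjusted p = 0.151). Of 18 measured upstream kinases and transcription factors, Rps6ka1, which encodes a ribosomal S6 kinase downstream of ERK, rose at D3 (1.06 ± 0.21, adjusted p = 0.00188) and in Chronic (1.0 ± 0.20, adjusted p = 0.00436), also just past 2-fold, and stood at 0.85 ± 0.20 at D7 (adjusted p = 0.00934). Its call was lost at D3 without Control 26 or D3 11 and in Chronic without Control 26, Chronic 43 or Chronic 45. Median log2 fold changes for D3, D7 and Chronic against Control were -0.13, 0.13 and 0.21 for the effector list. They were -0.19, 0.12 and 0.545 for the leucine zipper list and -0.10, -0.08 and 0.18 for the other early regulators. The feedback and decay list gave 0.04, -0.14 and 0.32, and the upstream list -0.12, -0.15 and -0.17. No gene of these lists was called between the pilocarpine groups. In Chronic against D3 Nr4a3 differed by 0.95 (adjusted p = 0.00872), short of the 2-fold limit only. It was called higher in Chronic with scaling at percentile 75 or without Chronic 43 or D3 13 or 15.

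Among the other genes of prostaglandin and leukotriene metabolism 4 rose. The list held 22 measured genes of synthesis, breakdown and receptors, Ptgs2 not among them. Of these, 3 rose at D3, 3 rose at D7, 1 rose in Chronic, and no member of the list fell. Their median log2 fold change was 0.04 at D3, 0.19 at D7 and 0.08 in Chronic. Tbxas1, the thromboxane synthase gene, ranged over 1.44 to 1.93 at D3, over 1.19 to 3.46 at D7 and over 1.03 to 1.95 in Chronic, against 0.3496 to 0.647 in Control. All pilocarpine arrays were above Control, and the changes were 1.87 ± 0.27, 1.89 ± 0.27 and 1.54 ± 0.27 (adjusted p = 0.000117, 0.000233 and 0.00164). Alox5ap, which encodes an activator of leukotriene synthesis, rose at D3 (1.65 ± 0.26, adjusted p = 0.000284) and D7 (1.55 ± 0.26, adjusted p = 0.00102), and stood at 0.93 ± 0.26 in Chronic (adjusted p = 0.0241), short of 2-fold. Ptgs1, the gene of the constitutive cyclooxygenase-1, rose at D7 only just past 2-fold (1.05 ± 0.26, adjusted p = 0.0105), and Hpgd, whose enzyme inactivates prostaglandins, at D3 (1.01 ± 0.21, adjusted p = 0.00256). Both calls were lost without one or another single array, that of Ptgs1 without Control 36 or D7 33 or 35 and that of Hpgd without Control 47 or D3 11, 13 or 15. Between Chronic and D3 Hpgd differed by -0.98 (adjusted p = 0.00528), short of the 2-fold limit only. It was called lower in Chronic than at D3 without Chronic 43 or 44 or D3 12 or 14. Beside these genes, 8 of 10 microglia and macrophage markers rose at D3, all 10 rose at D7 and 8 rose in Chronic, with a summed intensity of 231 to 280, 156 to 475 and 173 to 283, against 73.1 to 88.3 in Control. Their part in the changes of Tbxas1, Alox5ap and Ptgs1, and in those of Cebpd, Zfp36, Zfp36l1 and Rps6ka1, was not tested. Against the time-matched Control array alone, with no spread of its own, Inhba was at 2.25 and Maff at 1.78 in Chronic and Ptgs1 at 1.2 at D7, whereas Tbxas1 and Zfp36l1 were smaller in Chronic, at 1.06 and 0.67. By the methods' t-test after Benjamini-Hochberg adjustment the D7 calls of Tbxas1, Alox5ap and Ptgs1 were lost (adjusted p = 0.0711, 0.0793 and 0.144). That test called 91 of all probes higher at D7, against 1035 by limma.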

How the data were processed

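Total RNA of 18 hippocampi was labelled and hybridized to 1-colour CodeLink arrays. Per the methods, the authors quantified the spots, subtracted their background and normalized them with the CodeLink Expression Analysis software. The deposited normalized intensity is the background-subtracted intensity divided by 1 constant per array, as checked on the files, with constants of 97.3 to 190. Spots flagged good or low were kept, and 0.699% of spots were set to missing. The slide and the scan date are not given in the sources used here, and no column of other samples was found.

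Of 33849 gene probes, the platform annotation named 16738 and a RefSeq accession 205 more, and 165 that name several genes were assigned to none. Here the deposited intensity was raised to a floor at percentile 1 of an array's positive values, and its log2 was fitted with limma 3.58.1 in R 4.3.3 as 4 groups with an intensity trend. Probes needed 3 values or more in every pilocarpine group and 2 in Control. The fit was tried on simulated data with normal noise, in which a probe had the same spread in all 4 groups. Some of the 10 genes, such as Arc, differed in spread between groups, so that trial says nothing of their calls. A p-value sets a difference against the spread between single rats of a group. The 3 Control arrays come from 3 times, so that any difference between these times is part of that spread. Precision is limited by the number of arrays. The rule for named genes takes all 10 genes, from each pathway list up to 4 called genes, and the 5 genes most like Fos and Ptgs2. The genes and lists were chosen with earlier results of these data known. Alternatives were another scaling (quantile, or percentile 75), another floor, other flags, a filter on dim probes, no intensity trend, no fold limit, the mean over probes, the methods' t-test, the time-matched control array and each array left out. Normexp on spot and background intensity was not run, since the deposited intensity already has its background subtracted, nor was a slide or scan date block.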

Additional observations from a re-analysis of the deposited data

Results flagged for a closer look

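Among the 10 genes and the 12 other genes called from the pathway lists, 66 sets of up to 5 arrays were examined for an array far from the rest, as the gap to its neighbour over the range of the group on the log2 scale. The gap exceeded the limit, 0.71 for 5 arrays and higher where a value was missing, in 3 of them. Chance gives such a gap in about 1 in 20 groups, and it was present in 6.61% of all probes at D3, 6.37% at D7 and 6.16% in Chronic. Fosl1 was highest on D3 14 (0.870, with a gap of 0.732 of the range), Nr4a1 was highest on D3 13 (14.9, with 0.799), and Inhba was highest on D7 31 (6.04, with 0.792). No gene of the 22 was called between 2 pilocarpine groups, with Hpgd and Nr4a3 between Chronic and D3 short of the 2-fold limit only.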

How the results depend on the processing

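Both calls in Chronic, Fos and Ptgs2, held with another scaling, another floor, other flags, the filter on dim probes, no fold limit and the mean over probes. Without the intensity trend 1 of the 10 genes was called in Chronic (Ptgs2 at adjusted p = 0.0676), and 0 with the time-matched control array alone, where 1 array is assumed to vary like the other groups, or by the methods' t-test after Benjamini-Hochberg adjustment. At D3 1 gene, Fos, was called with quantile normalization, scaling at percentile 75, only spots flagged good, or probes flagged good on at least 5 arrays (adjusted p = 0.0408 to 0.049), and 2, Fos and Arc, by the methods' t-test unadjusted, which also called 1 gene, Egr2, between Chronic and D3. With 1 array left out, the calls numbered 0 to 2 in Chronic (0 without Control 36), 0 to 1 at D3 (Fos without D7 31, Chronic 43 or 45 or Control 26, Egr1 without D3 13) and 0 to 1 between Chronic and D3 (Egr2 without D7 31 or Chronic 43). At D7 against Control, between D7 and D3 and between Chronic and D7 the count was 0 in every setting run. These counts take 1 value per gene, so that the calls of the second Fosl1 probe lie outside them. No called value changed sign. No paired analysis was possible because no replicate number occurs in more than 1 group. With 3 Control arrays, a gene with the spread of Arc had a standard error of 0.57, so that changes near 2-fold were not detectable, and spots of Egr3 and of the second Fosl1 probe near background carry little information.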
